A study of Mus musculus with 12 samples.

Results

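The Myc and Mxd network was followed through the first hours of retinoic acid (RA) exposure in mouse embryonic stem (ES) cells. Its 9 members here were Myc, Mycn, Max, Mxd1, Mxd3, Mxd4, Mxi1, Mnt and Mga. They were taken by gene symbol in the platform's annotation, and every probe set carrying one of these symbols alone was kept. This gave 24 probe sets of the 45037 tested, and 9 of the 18193 genes with a probe set of their own. A probe set is a group of short array probes read as a single value.

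RNA came from KH2 cells, a mouse ES cell line grown on feeder cells, and was hybridised to 12 Affymetrix arrays in 4 groups of 3 replicates, lettered A, B and C. The groups were no RA and an exposure of 2, 4 or 6 h to 0.3 µM RA in a medium of DMEM, serum and non-essential amino acids (NAA in the labels) that the labels call differentiation medium. Treated cells received this medium together with RA, and the labels do not state it for the untreated cells. RA and the change of medium therefore cannot be told apart in any comparison against no RA. Nor can they between RA times, where the time in RA and the time in this medium rise together. All cells were trypsinised and replated on gelatin for 30 min, and the 2 protocol texts differ on whether attached or unattached cells were then kept. Nothing in the labels tells whether a replicate is a culture of its own, and a p-value here reflects the spread between these samples, possibly only technical. All groups share the cell line and the feeders, and with 3 arrays per group the precision is limited.

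Myc and Mycn are basic helix-loop-helix leucine zipper factors that drive growth and proliferation. They bind DNA as heterodimers with Max, at E-boxes with the core CACGTG, and recruit histone acetyltransferases. Mxd1, Mxi1, Mxd3, Mxd4 and Mnt compete for Max and for the same sites and recruit the Sin3 corepressor. Mga also pairs with Max, carries a T-box domain as well, and belongs to PRC1.6, a Polycomb complex that keeps germ line genes silent in ES cells. In ES cells Myc and Mycn both support self-renewal.

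Promoter sequences are shown for the 2 genes with the largest falls, Mycn and Mnt, and for their common partner Max. They are the 250 bases upstream of the annotated start in RefSeq (GRCm38.p6), written 5′ to 3′ on the gene's strand. Capitals mark matches to motifs searched on both strands: the E-box CACGTG, the nuclear receptor half-site AGGTCA, and the E2F-type forms TTTGGCGC and TTTCGCGC. The E2F forms were chosen after the Mycn sequence had been seen. Mycn lies at chr12:12941837-12942086 on the minus strand, Mnt at chr11:74830674-74830923 on the plus strand and Max at chr12:76962249-76962498 on the minus strand.
Mycn: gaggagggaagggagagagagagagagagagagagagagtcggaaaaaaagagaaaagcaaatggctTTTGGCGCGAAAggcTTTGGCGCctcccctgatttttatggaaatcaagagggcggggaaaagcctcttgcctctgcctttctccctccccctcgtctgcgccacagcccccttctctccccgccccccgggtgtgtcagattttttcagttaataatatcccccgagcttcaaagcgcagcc
Mnt: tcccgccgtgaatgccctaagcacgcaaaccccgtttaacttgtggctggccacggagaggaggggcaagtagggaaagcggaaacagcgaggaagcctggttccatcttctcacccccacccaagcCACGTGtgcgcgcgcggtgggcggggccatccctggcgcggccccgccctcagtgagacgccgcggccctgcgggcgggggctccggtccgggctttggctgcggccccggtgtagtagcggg
Max: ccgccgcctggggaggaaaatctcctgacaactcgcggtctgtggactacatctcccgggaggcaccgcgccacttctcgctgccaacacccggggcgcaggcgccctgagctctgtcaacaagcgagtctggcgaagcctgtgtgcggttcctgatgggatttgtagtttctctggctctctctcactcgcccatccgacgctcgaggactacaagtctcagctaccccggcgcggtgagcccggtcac

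The Mycn window held 3 E2F-type matches. TTTGGCGC lay at 183 to 176 and at 168 to 161 bases upstream, and TTTCGCGC on the opposite strand, at 179 to 172 bases, overlapped the first of these. The same window held no E-box. The Mnt window held 1 E-box, at 123 to 118 bases upstream, and the Max window held no match. Mxd4 was the other member with an E-box, at 219 to 214 bases upstream in the window chr5:34187711-34187960 on the minus strand, which is shown for comparison because the level of this gene did not pass the test at any time.
Mxd4: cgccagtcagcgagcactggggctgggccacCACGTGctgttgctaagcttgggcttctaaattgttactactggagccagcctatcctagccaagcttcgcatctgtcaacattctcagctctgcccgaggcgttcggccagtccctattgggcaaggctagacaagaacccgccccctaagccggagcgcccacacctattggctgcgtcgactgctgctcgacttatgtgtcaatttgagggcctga

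In all, 8 of the 9 genes matched the promoter table, with 10 promoters, and 6 of the 8 had no E-box in any of them. AGGTCA was in none of the 10. Of 32851 promoters of this length, 6.02% held CACGTG, 14.02% AGGTCA and 0.65% either E2F form. These matches describe letters in the windows, not binding.

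All values below are deposited log2 signals. The median of all values was 6.07, and the 12 array medians lay between 6.05 and 6.1. The RA response list (Cyp26a1, Rarb and others) was higher at every time in 5 of 5 measured genes, and Cyp26a1, which degrades RA, rose by 6.11, 6.85 and 6.46 at 2, 4 and 6 h. The 13 ES cell markers had a mean signal of 12.2 to 12.6 on every array, and Pou5f1, the defining ES cell factor, differed from no RA by -0.0052, 0.038 and 0.089 (SE 0.059). Other ES cell markers fell: 1 of the 13 was higher and 8 were lower at 4 h and again at 6 h, with list medians of -0.35 and -0.32. Untreated replicate C stood apart, correlating with each of the other untreated arrays at 0.993 over all probe sets. Those arrays correlated at 0.997 with each other, and arrays of the same RA group at 0.997 to 0.998. In bulk RNA, fewer cells of a type and less RNA per cell cannot be told apart.

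Over the network as a whole, Mycn and Mnt fell from 2 to 4 h and stayed low at 6 h. Mga passed as lower at 6 h on 2 of its 5 probe sets, but both calls were lost in most fits without 1 array. The other 6 genes did not pass the test at any time. Against no RA, 0 of 24 member probe sets passed at 2 h, 3 at 4 h and 5 at 6 h, all of them lower (limma, Benjamini-Hochberg adjusted p under 0.05). At 2 h, 5 of the 24 had an unadjusted p under 0.05, as did 15.6% of all probe sets. Of all probe sets, 1.81% passed at 2 h, 18.7% at 4 h and 20.6% at 6 h, and 9.36% and 9.83% were lower at 4 and 6 h. The members' shares were 12.5% at 4 h and 20.83% at 6 h. They were thus near the background when either direction is counted. The median difference of the 24 was -0.042, -0.11 and -0.066 at the 3 times, against 0.0082, 0.0057 and -0.011 over all probe sets. The arrays did not overlap with the untreated ones in 3, 4 and 7 of the 24 at the 3 times. Over all probe sets this held for 19.93%, 30.94% and 32.41%, so a lack of overlap was common. An F test over the 4 groups called 3 of the 24 (the pair of Mycn probe sets and the Mnt probe set described next) and 25.9% of all.

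Between RA times, 3 member probe sets were lower at 4 h than at 2 h, where 16.3% of all probe sets passed and 7.09% were lower. None of the 24 passed between 4 and 6 h with limma, where 0.173% of all probe sets passed. At that step 1 of the 24 had an unadjusted p under 0.05, against 10.8% of all. The 4 and 6 h arrays did not overlap in 5 of the 24, against 19.77% of all. From 2 to 6 h, 3 members were lower, against 22.9% of all passing and 9.85% lower. The 3 were the same at each step, 1417155_at and 1425922_a_at for Mycn and 1418192_at for Mnt. These comparisons do not use the untreated arrays in the difference itself.

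**Figure D1:**
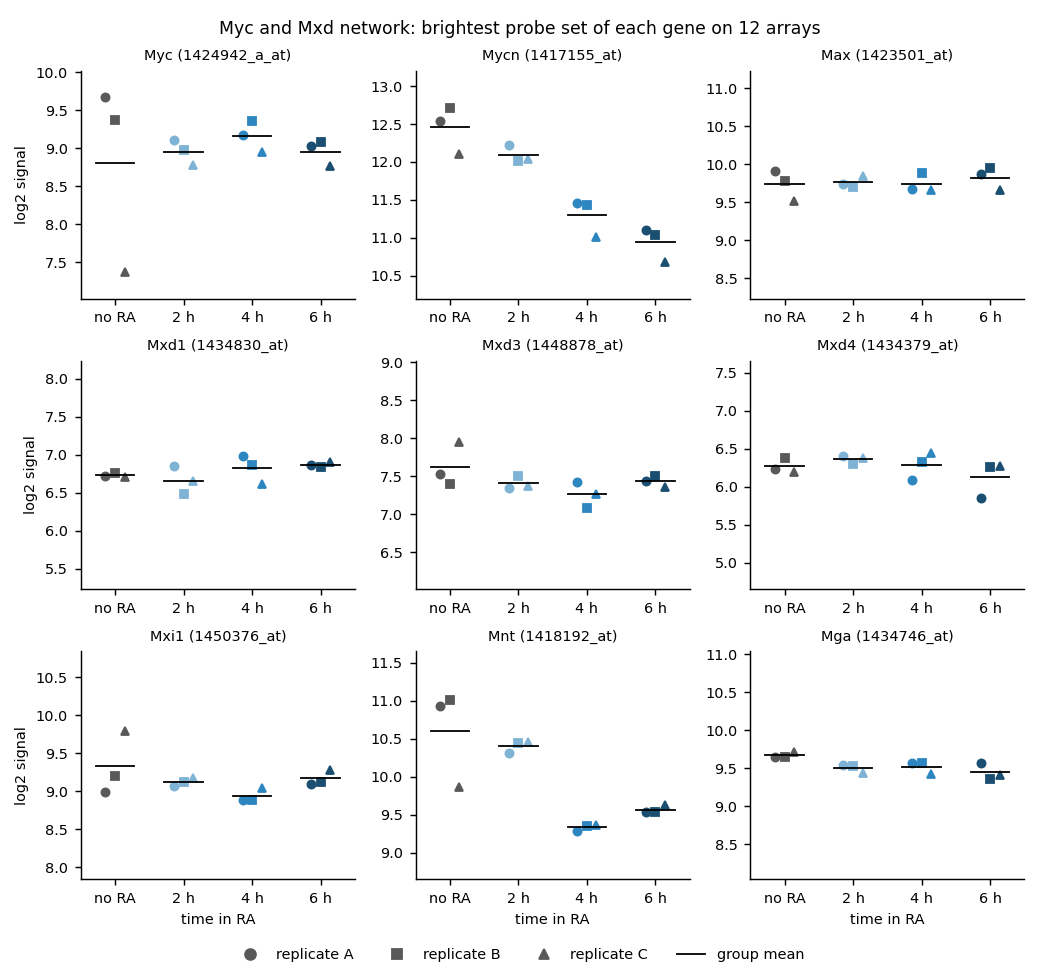
Deposited log2 signal of the brightest probe set of each of the 9 genes (y axis, 1 panel per gene) on the 3 arrays of each group (x axis, no RA, 2, 4 and 6 h). Symbols are replicates A, B and C and bars are group means; Mycn and Mnt step down between 2 and 4 h, and untreated replicate C lies far below A and B for Myc.

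Mycn, the Myc family member that is abundant in embryonic progenitors, fell at 4 and 6 h and had the largest difference of all members at 6 h. Its brightest probe set, 1417155_at, read 12.54, 12.72 and 12.11 in untreated replicates A, B and C. It read 12.22, 12.02 and 12.03 at 2 h, 11.46, 11.43 and 11.01 at 4 h, and 11.11, 11.04 and 10.69 at 6 h. The 2 h arrays overlapped with the untreated ones, while every array at 4 and 6 h lay below every array at 0 and 2 h. Relative to no RA the log2 difference was -0.37 ± 0.17 (SE) at 2 h, which did not pass (limma adjusted p = 0.311). It was -1.15 ± 0.17 at 4 h (adjusted p = 0.000498) and -1.51 ± 0.17 at 6 h (adjusted p = 6.29e-05), a level 2.23-fold and 2.85-fold lower. The step from 2 to 4 h was -0.79 (adjusted p = 0.00671). The order of the group means was no RA, 2 h, 4 h, 6 h, and the neighbours no RA and 2 h, and 4 h and 6 h (-0.36 ± 0.17, adjusted p = 0.473), did not differ past the threshold. The 4 and 6 h calls held in each of 12 fits that left out 1 array, with differences of -1.33 to -1.01 and -1.68 to -1.38.

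The second Mycn probe set, 1425922_a_at, moved alike. It read 9.67, 9.76 and 9.01 without RA, 9.0, 8.96 and 8.97 at 2 h, 8.36, 8.45 and 8.13 at 4 h, and 8.33, 8.12 and 8.09 at 6 h. Here the groups at 0, 2 and 4 h did not overlap at all, although untreated replicate C lay just above the 2 h arrays. The differences from no RA were -0.51 ± 0.16 at 2 h (limma adjusted p = 0.149), -1.17 ± 0.16 at 4 h (adjusted p = 0.000377) and -1.30 ± 0.16 at 6 h (adjusted p = 0.000143). Without untreated replicate C the 2 h difference was -0.74 ± 0.10 and passed (adjusted p = 0.00249). The fall from 2 to 4 h, -0.66 (adjusted p = 0.0146), did not pass without 4 h replicate C (-0.57, adjusted p = 0.0623). The third probe set, 1425923_at, lay between 6.79 and 7.14 on all arrays and differed from no RA by 0.084, 0.15 and -0.053 (SE 0.080), so the 3 Mycn probe sets did not all report the fall. Which part of the transcript each covers was not analysed here.

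Myc itself had a single probe set, 1424942_a_at. It read 9.67, 9.37 and 7.37 in untreated replicates A, B and C, 9.10, 8.97 and 8.78 at 2 h, 9.17, 9.35 and 8.95 at 4 h, and 9.03, 9.08 and 8.76 at 6 h. All 9 RA arrays lay between 8.76 and 9.35, below untreated A and B and above untreated C. The differences from no RA were 0.15, 0.36 and 0.15 ± 0.43 (SE), and none passed (limma adjusted p = 0.903, 0.657 and 0.862). Untreated C was 2.15 below the mean of A and B, and 0.0377% of all probe sets were as far apart or farther, which ranks Myc 17 of 45037. Without untreated C the direction turned: the differences were -0.57, -0.36 and -0.56 ± 0.14, with adjusted p = 0.0607, 0.111 and 0.0153, so that Myc passed as lower at 6 h. The direction of Myc against no RA therefore rested on this array. Among the RA times, where that array does not enter the difference, no Myc difference passed. The array still enters the SE through the shared fit, and the SE was 0.43 there too. The untreated group had a standard deviation (SD) of 1.25, against 0.16 to 0.20 in the RA groups.

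Feeder fibroblast markers averaged lowest in untreated C, the array where Myc was lowest too. Their mean signal over 29 measured genes was 8.21, 8.54 and 7.79 in untreated A, B and C and 8.20 to 8.47 on the RA arrays. In untreated C, 23 of the 29 were lower than the average of the other untreated arrays, and the list's median difference from that average was -0.59. In untreated A, itself part of that average, 24 of the 29 were lower, with a median of -0.16. Of untreated A and B, A had the lower marker mean but the higher Myc value. Of the 29, 2 read below 6.07 on all arrays, and Col1a1, a fibrillar collagen gene, differed from no RA by 0.14, 0.26 and 0.18 ± 0.17 (SE). The 9 primitive endoderm markers averaged 7.29, 7.45 and 6.97 on the same 3 arrays. Whether these cells had a part in the Myc value was not tested.

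**Figure D2:**
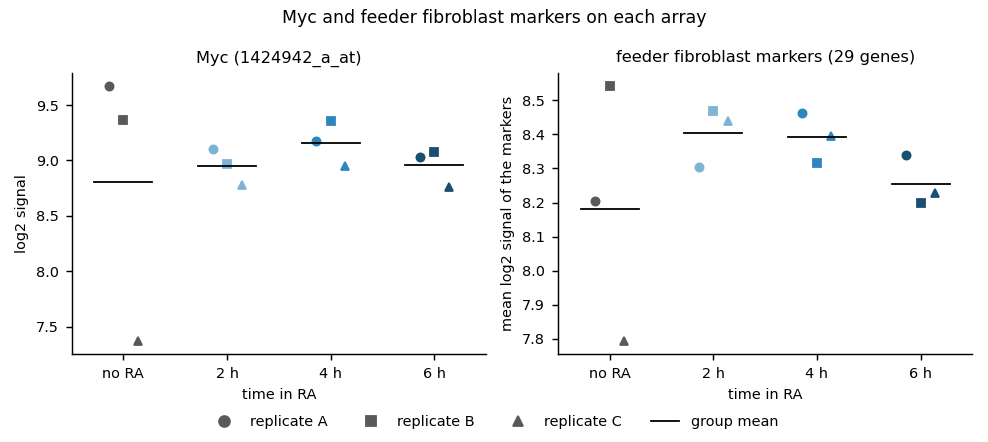
Left, deposited log2 signal of Myc; right, mean log2 signal of 29 feeder fibroblast markers, both on the 3 arrays of each group (x axis, no RA, 2, 4 and 6 h; bars are group means). Untreated replicate C is the lowest array in each panel, at 7.37 for Myc and 7.79 for the markers.

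Max, the shared partner of the Myc, Mxd, Mnt and Mga proteins, kept a level of 9.52 to 9.95 on all arrays. It read 9.91, 9.77 and 9.52 without RA and 9.86, 9.95 and 9.66 at 6 h, and the groups overlapped at every time. Its differences from no RA were 0.030, 0.0063 and 0.091 ± 0.11 (SE), with 95% intervals of -0.21 to 0.27, -0.23 to 0.25 and -0.15 to 0.33.

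Mnt, the broadly expressed Max-binding repressor, was the second gene that fell. Its brightest probe set, 1418192_at, read 10.93, 11.01 and 9.87 without RA, 10.31, 10.44 and 10.45 at 2 h, 9.29, 9.35 and 9.37 at 4 h, and 9.54, 9.53 and 9.63 at 6 h. The 4 and 6 h arrays lay below every untreated and 2 h array, and untreated C was the lowest of the untreated arrays, 1.10 below the mean of A and B (0.635% of all probe sets were as far apart). The differences from no RA were -0.20 ± 0.22 (SE) at 2 h (limma adjusted p = 0.708), -1.27 ± 0.22 at 4 h (adjusted p = 0.00169) and -1.04 ± 0.22 at 6 h (adjusted p = 0.00519), which is 2.41-fold and 2.05-fold lower. Without untreated C they were -0.57, -1.64 and -1.40, and the 2 h difference passed too (adjusted p = 0.00144).

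The fall of Mnt from 2 to 4 h was -1.07 ± 0.22 (limma adjusted p = 0.00596), a difference that does not use the untreated arrays. These arrays enter its SE through the shared fit: their SD was 0.64, against 0.081, 0.042 and 0.056 at 2, 4 and 6 h. Over the 12 fits without 1 array its limma adjusted p was 6.57e-06 to 0.0251. All 3 arrays at 6 h lay above all 3 at 4 h, by 0.23 on average, but this did not pass (adjusted p = 0.756). From 2 to 6 h Mnt fell by 0.83 (adjusted p = 0.0164). That call was lost without 2 h replicate B or C or without 6 h replicate A or B, with adjusted p up to 0.052 and differences of -0.82 to -0.81. Over all 12 fits without 1 array the difference was -0.88 to -0.81, and the limma adjusted p was 7.98e-06 to 0.052. The other Mnt probe set, 1418193_at, lay between 6.24 and 6.54, near the median of all values, and differed from no RA by -0.024, -0.088 and -0.064 ± 0.084.

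**Figure D3:**
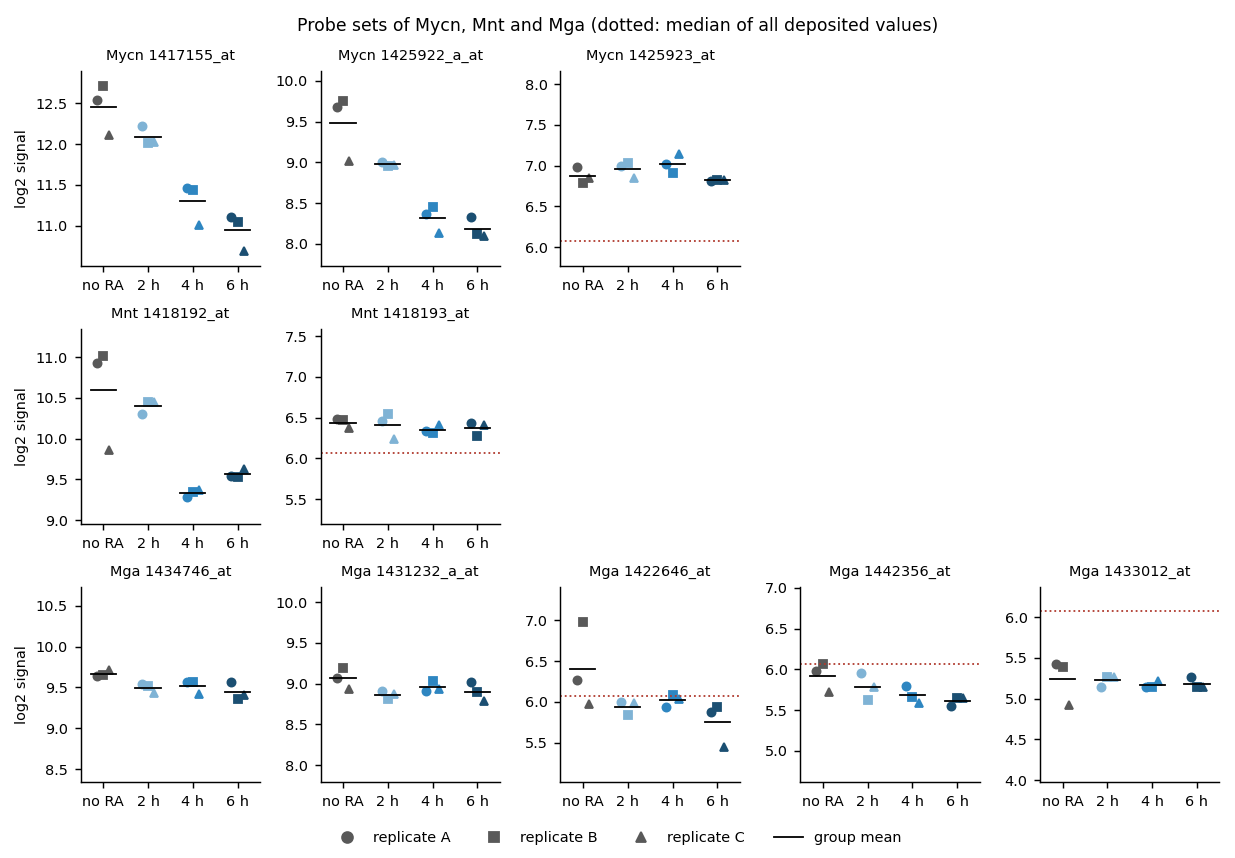
Deposited log2 signal of probe sets of Mycn, Mnt and Mga (y axis, 1 panel each) on the 3 arrays of each group (x axis, no RA, 2, 4 and 6 h; bars are group means; dotted line, median of all deposited values, 6.07). Of the probe sets of Mycn and Mnt, 1417155_at, 1425922_a_at and 1418192_at step down at 4 h, while 1425923_at and 1418193_at do not.

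Mga, the scaffold of PRC1.6, had 5 probe sets. The brightest, 1434746_at, read 9.64, 9.65 and 9.72 without RA, 9.54, 9.52 and 9.44 at 2 h, 9.57, 9.56 and 9.43 at 4 h, and 9.57, 9.35 and 9.41 at 6 h. Every RA array was below every untreated array, by small amounts: the differences were -0.17, -0.15 and -0.23 ± 0.074 (SE), and the last passed (limma adjusted p = 0.0483). Probe set 1422646_at read 6.26, 6.97 and 5.97 without RA and 5.88, 5.93 and 5.45 at 6 h, a difference of -0.65 ± 0.20 (adjusted p = 0.0394). It was under the median of all values on 9 of the 12 arrays. Its untreated replicate B stood 0.71 above A, and without B the difference was -0.36 (adjusted p = 0.104).

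Neither Mga call was firm. That of 1434746_at was lost in 10 of 12 fits without 1 array, and that of 1422646_at in 11 of 12. Of the other Mga probe sets, 1431232_a_at (8.79 to 9.19) differed by -0.20, -0.11 and -0.16 ± 0.084, 1442356_at by -0.13, -0.24 and -0.31 ± 0.10, and 1433012_at, under the median on all 12 arrays, by -0.017, -0.079 and -0.060 ± 0.11. None of these 3 passed, with the 6 h difference of 1442356_at nearest (limma adjusted p = 0.0568). That probe set was under the median of all values on 11 of the 12 arrays. Without untreated C, 1422646_at, 1433012_at and 1442356_at passed as lower at 4 and 6 h. The brighter 1434746_at and 1431232_a_at did not pass in that fit. The 5 Mga probe sets all had a negative difference at each time, between -0.65 and -0.017. All of these differences share the same untreated arrays, so their signs are not separate evidence.

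The Mxd genes encode the small repressors that replace Myc on Max when cells stop dividing. None of their 12 probe sets passed in any comparison. Mxd3, which is expressed in dividing cells, had its largest difference at 4 h on 1448878_at, -0.37 ± 0.13 (SE, limma adjusted p = 0.066). This probe set read 7.53, 7.40 and 7.95 without RA and 7.43, 7.09 and 7.27 at 4 h, so the groups overlapped, and without untreated C the difference was -0.21. Without untreated B the same difference was -0.48 and passed (adjusted p = 0.0257). The other Mxd3 probe sets, 1422970_at and 1438847_at, differed by -0.20 to -0.024 at the 3 times.

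Mxi1, known also as the repressor Mxd2, showed a like pattern on 1450376_at. It read 8.99, 9.20 and 9.79 without RA and 8.89, 8.89 and 9.04 at 4 h, a difference of -0.39 ± 0.16 (SE) that did not pass (limma adjusted p = 0.111). Untreated C was 0.70 above the mean of A and B, and without it the difference was -0.16. Without untreated A it was -0.56 and passed (adjusted p = 0.0189). On the brightest probe set of each gene, untreated C was thus low for Myc, Mnt, Mycn (-0.52) and Max (-0.33). It was high for Mxi1 and Mxd3 (0.48), and differed by -0.028, -0.11 and 0.069 for Mxd1, Mxd4 and Mga. Of all probe sets, 7.07% were as far apart as Mycn or farther, 8.47% as Mxd3 and 18.4% as Max. The second Mxi1 probe set, 1425732_a_at, differed by -0.096, -0.11 and 0.096 ± 0.099.

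Mxd1, an early marker of cell cycle exit in several lineages, read 6.48 to 6.99 on its brightest probe set, 1434830_at, with differences of -0.073, 0.094 and 0.14 ± 0.10 (SE). Its 95% interval at 6 h was -0.087 to 0.36. Probe set 1455104_at lay between 6.31 and 6.80, and 1422002_at was under the median on all arrays. For Mxd4, 3 of 4 probe sets were under the median of all values on all 12 arrays. The fourth, 1434379_at, read 5.86 to 6.45, and its interval at 6 h was -0.39 to 0.12. Signals under the median were not tested against background.

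**Figure D4:**
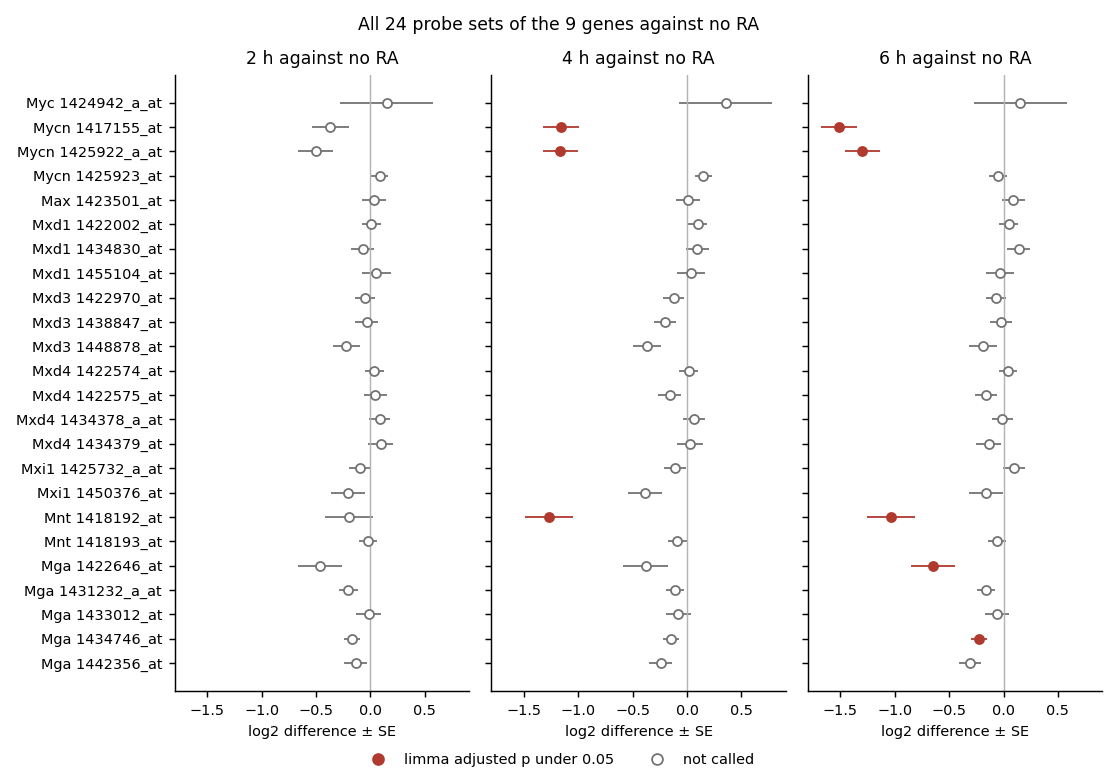
Log2 difference from no RA with its standard error (x axis) for all 24 probe sets of the 9 genes (y axis) at 2, 4 and 6 h (panels); filled red points have a limma adjusted p under 0.05, open grey points do not. The filled points are all lower: none at 2 h, 3 at 4 h (Mycn and Mnt) and 5 at 6 h (Mycn, Mnt and Mga).

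The genes with the pattern most like a member's were sought among 2751 genes that were above the median and ranged by at least 0.5 over the group means. These correlations over 12 arrays are descriptions, since the arrays share their 4 groups. For Mycn the closest were Pim3, a serine/threonine kinase gene (Pearson r = 0.986, Spearman rho = 0.979), the LIF receptor gene Lifr (r = 0.980, rho = 0.909) and the kinase gene Sgk3 (r = 0.978, rho = 0.986). Without the 2 arrays farthest from the Mycn median, r was 0.979, 0.972 and 0.972. At 6 h Pim3, Lifr and Sgk3 differed from no RA by -0.68, -1.18 and -0.74.

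For Mnt the closest were the Mediator subunit gene Med1 (r = 0.977, rho = 0.881), the nuclear receptor gene Nr1d2 (r = 0.975, rho = 0.895) and Ccnl1, a cyclin gene (r = 0.974, rho = 0.958), with r of 0.953, 0.948 and 0.946 without 2 arrays. For Myc the closest were Eprn (r = 0.919, rho = 0.713), the histone methyltransferase gene Setd1b (r = 0.897, rho = 0.546) and Ereg, which encodes epiregulin (r = 0.894, rho = 0.664). Those fell to 0.503, 0.421 and 0.619 without untreated C and A, so the likeness to Myc rested on these arrays.

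Genes that work with the network were counted in 9 lists, each gene by its brightest probe set. Beside them stands the share of all 18193 genes: 1.25% higher and 0.781% lower at 2 h, 11.2% and 12.5% at 4 h, 13.3% and 13.1% at 6 h, and 15.4% and 13.1% for 6 h against 2 h. The median of all genes was 0.0043, 0.0023 and -0.014 at 2, 4 and 6 h against no RA and -0.040 for 6 h against 2 h. The comparisons against no RA share the untreated arrays. List counts that untreated replicate C changes are given without it too. In that fit the shares of all genes higher and lower were 1.75% and 1.54% at 2 h, 12.6% and 12.5% at 4 h, and 15.8% and 14.1% at 6 h.

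Among 7 other genes of the extended network, 0 were called at 2 h, 1 was higher and 3 lower at 4 h, and 1 was higher and 1 lower at 6 h (list medians -0.072, -0.16 and -0.16). Mycl, the third Myc family gene, went from 7.71 without RA to 6.87 at 4 h and 6.91 at 6 h, differences of -0.84 and -0.80 ± 0.11 (SE, limma adjusted p = 0.00025 and 0.000274). Mlx, the Max-like partner of the glucose-sensing factors and of some Mxd proteins and Mnt, rose by 0.40 and 0.48 ± 0.090 (adjusted p = 0.00778 and 0.00248). Mlxipl, a glucose-responsive factor that pairs with Mlx, fell by 0.48 at 4 h (adjusted p = 0.00827). Its relative Mlxip, named after its value was seen, fell by 0.25 at 4 h (adjusted p = 0.04999). Without untreated C, 2 of the 7 were lower at 4 h, against 12.5% of all genes.

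For the repressor side, 13 genes of the Sin3 and NCoR corepressors were measured. At 2, 4 and 6 h, 0, 1 and 1 were higher and 1, 3 and 2 lower (medians 0.022, -0.075 and -0.080). Ing2, a subunit that reads histone methylation, fell by 0.35 at 2 h, 0.65 at 4 h and 0.49 at 6 h (limma adjusted p = 0.0475, 0.000178 and 0.00102). Without untreated C, 0 of the 13 were called at 2 h, where 1.75% of all genes were higher and 1.54% lower. That fit called 3 of the 13 lower at 6 h, where the share of all genes was 14.1%. Arid4b fell by 0.45 at 4 h and Ing1 by 0.24 at 6 h, while Brms1, another Sin3 subunit, rose by 0.54 and 0.52.

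Of 12 measured partners of Mga in PRC1.6, 0, 1 and 2 were higher and 0, 1 and 1 lower at 2, 4 and 6 h (medians -0.0087, 0.044 and 0.0034). E2f6, the factor that targets the complex to DNA, rose by 0.35 and 0.39 ± 0.078 (SE, limma adjusted p = 0.00793 and 0.00329) at 4 and 6 h. Wdr5, shared with histone methyltransferases, fell by 0.30 and 0.42, and the ubiquitin ligase subunit Ring1 rose by 0.20 at 6 h. Without untreated C, 1 of the 12 was higher at 6 h, against 15.8% of all genes. Of 14 germ line genes known to be silenced by PRC1.6 or E2f6, 0, 2 and 4 were higher and 0, 2 and 2 lower (medians 0.052, 0.078 and 0.11), and 3 of the 14 read below 6.07 on all arrays. Dazl, a germ cell RNA-binding protein gene, rose from 8.10 to 8.61 at 4 h and 8.67 at 6 h (adjusted p = 0.020 and 0.0103). Slc25a31, the germ line ATP carrier, read 5.42 without RA, under the median, and 6.20 and 6.32 at 4 and 6 h (adjusted p = 0.0017 and 0.000575). Stk31 fell by 0.33 at 4 h and Smc1b, a meiotic cohesin subunit, by 0.52 at 6 h. Without untreated C, 5 of the 14 germ line genes were higher at 6 h, against 15.8% of all genes.

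On the activator side, 16 coactivators and partners of Myc gave 0, 1 and 2 higher and 0, 5 and 2 lower (medians -0.065, -0.054 and 0.029). Brd8, a subunit of the Tip60 acetyltransferase complex, fell by 0.36 at 4 h, and Dmap1, of the same complex, rose by 0.26 and 0.34 at 4 and 6 h. The acetyltransferase Crebbp rose by 0.41 at 6 h. Without untreated C, 3 of the 16 were lower at 6 h, against 14.1% of all genes. Of 15 genes that control Myc protein turnover, 0, 1 and 2 were higher and 0, 3 and 3 lower (medians -0.037, 0.030 and -0.047). Usp28, a deubiquitinase that stabilises Myc, fell by 0.67 and 0.79 ± 0.12 (SE, limma adjusted p = 0.00158 and 0.000442), and the ubiquitin ligase Trim32 rose by 0.61 and 0.54. The F-box gene Btrc fell by 0.37 at 4 h and the deubiquitinase Usp37 by 0.27 at 6 h. Without untreated C, 2 of the 15 turnover genes were lower at 4 h, against 12.5% of all genes.

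Among 49 direct Myc target genes for growth and metabolism, the counts higher were 0, 9 and 14 and the counts lower 1, 4 and 4 at 2, 4 and 6 h (medians -0.051, 0.050 and 0.083). From 2 to 6 h, 19 of the 49 rose and 0 fell, with a list median of 0.19 against -0.040 for all genes. All genes include dim ones, while none of the 49 read under the median on all arrays. Among probe sets with a mean at or above the median, 42.5% passed from 2 to 6 h, with a median of 0.016. Of these calls 58.9% were higher. Nop56, a core protein of the small nucleolar particles that modify ribosomal RNA, went from 12.50 without RA to 12.25, 12.86 and 13.16, and the last was 0.66 ± 0.079 (SE) above no RA (limma adjusted p = 0.000117) and 0.91 above 2 h (adjusted p = 1.85e-05). Rrp12, a ribosome assembly factor, rose by 0.52 and 0.64 at 4 and 6 h. Shmt2, a mitochondrial enzyme of serine and folate metabolism, rose by 0.30 and 0.60. Hk2, the glycolytic hexokinase, fell by 0.59 at 2 h (adjusted p = 0.00546) and 0.54 at 4 h, and its 6 h difference of -0.17 did not pass. Without untreated C, 7 of the 49 were higher and 2 lower at 4 h, where 12.6% and 12.5% of all genes were, and 13 and 4 at 6 h, against 15.8% and 14.1%. The list includes Rcl1, a symbol that now names a gene of ribosomal RNA processing. Without it, a choice made after the data had been seen, 13 of 48 were higher at 6 h and 18 rose from 2 to 6 h.

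In 14 genes known to be repressed by Myc with Miz1 or Sp1, 0, 1 and 2 were higher and 0, 4 and 6 lower (medians -0.070, -0.036 and -0.037). Ndrg1, named for its repression by Mycn, went from 8.85 without RA and 8.97 at 2 h to 7.17 at 4 h and 7.29 at 6 h, differences of -1.68 and -1.55 ± 0.11 (SE, limma adjusted p = 1.88e-06 and 2.63e-06). Ndrg2 fell by 0.62 and 0.96 and the cell cycle inhibitor gene Cdkn1a by 0.57 at 6 h. Gadd45a, a growth arrest gene, rose by 0.66 at 4 h. Without untreated C, the counts were 3 higher and 4 lower at 4 h (12.6% and 12.5% of all genes) and 4 higher and 6 lower at 6 h (15.8% and 14.1% of all genes).

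Of 24 upstream regulators of Myc and Mycn, 2, 4 and 4 were higher and 1, 7 and 6 lower (medians -0.042, -0.041 and -0.0089). Stat3, which carries the LIF signal to Myc in ES cells, fell by 0.63 ± 0.087 (SE) at 2 h (limma adjusted p = 0.00269). Tcf7l1, a Wnt pathway repressor, rose by 0.55 at 2 h and 0.78 at 4 h, and Fubp3, a relative of the factor that binds upstream of Myc, rose by 0.40 at 2 h and 0.62 at 6 h. The receptor gene Notch1 fell by 0.78 at 4 h and 1.07 at 6 h, Lef1 by 0.80 at 4 h and the Hedgehog factor Gli2 by 0.54 at 6 h. Without untreated C, 2 of the 24 were lower at 2 h, against 1.54% of all genes. At 6 h, 5 were then higher and 7 lower, against 15.8% and 14.1% of all genes. The 24 include Tcf3, an older symbol of Tcf7l1 that names the E2A gene in this annotation, and it was not called at any time.

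**Figure D5:**
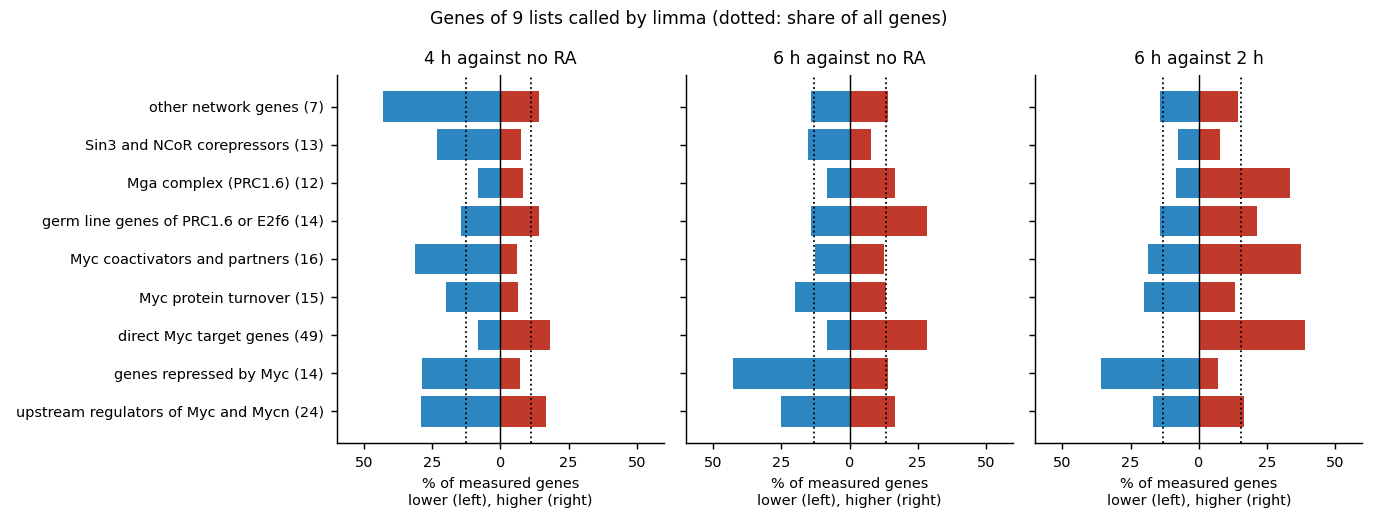
Percent of the measured genes in each of 9 lists that were called higher (right) or lower (left) at each comparison (panels), with the number measured in parentheses and dotted lines at the share of all 18193 genes. Direct Myc target genes have 14 of 49 higher and 4 lower at 6 h against no RA.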

How the data were processed

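The authors deposited processed values of 45101 probe sets on 12 arrays, read here as log2 from their range since the labels name no scale. The submitters' processing notes list limma 3.4.3 with no role, and how the authors normalized these deposited log2 values is not given in the sources used here. The values were used as deposited. Per the labels' protocols, 200 ng of RNA was labelled with biotin. After 64 control probe sets were left out, R 4.3.3 and its package limma 3.58.1 fitted group means for 45037 probe sets by lmFit and moderated the variances by eBayes, with 8 degrees of freedom left in the residuals and a prior of 4.226, and with Benjamini-Hochberg adjustment over all of them in each of 6 comparisons. A call is an adjusted p under 0.05, and errors are standard errors of the fit. No probe set of several symbols named a member, and all 24 member probe sets matched RefSeq by gene ID.

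The members and the 9 lists, which hold 161 measured genes, were chosen with earlier results of these data known. The rule for named genes took all members, then up to 3 genes of each list with the largest difference among those called in each comparison against no RA, and Cyp26a1, Pou5f1 and Col1a1. Likeness was sought for Myc, Mycn and the other member with the widest range. List counts without untreated replicate C, and without Rcl1, were added after the data had been seen. The fit was tested on simulated data. Alternatives were other normalizations, filters, variance models, thresholds, fits of only 2 groups, a replicate block and leaving out each array. Python 3.11.15 and matplotlib 3.10.9 made the figures.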

Additional observations from a re-analysis of the deposited data

How the results depend on the processing

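Of 14 called member differences, 134 of 144 refits under alternatives other than leaving out an array kept direction and call. The 144 include 14 at an adjusted p under 0.1, where a call could not be lost. The counts of called member probe sets moved as follows. At 2 h against no RA, 1 passed with array weights and 0 to 2 when each array was left out in turn, against 0. At 4 h, 3 to 6 passed with an array left out, against 3. At 6 h, 5 passed, and 3 did so with only the brightest probe set per gene (which leaves 9 to test). The count was also 3 at an adjusted p under 0.01 and with only the 2 groups compared. It was 3 again without probe sets of a suffix such as _a_at. That filter removed the only Myc probe set and the second Mycn probe set, so this Mycn call was untested there. The call of Mga 1434746_at was tested there and lost (limma adjusted p = 0.0614). With an array left out the 6 h count was 3 to 7. The highest count at each of the 3 times came without untreated replicate C, where 3.41%, 20.3% and 23.6% of all probe sets passed. Myc at 6 h was then -0.56 in place of 0.15, and -0.56 to 0.59 over all arrays left out in turn. Probe sets differing over the 4 groups numbered 11676, against 6596 for the brightest per gene and 6836 at an adjusted p under 0.01. Of 130 member differences not called, 7 of 1278 refits gave a call, or 12 of 1560 with an array left out, Myc included. The 1278 include 130 at an adjusted p under 0.01, where no call could be gained. Calls over all probe sets at 2 h, 815, became 1466 with array weights, 254 with only 2 groups, 297 and 1576 at adjusted p under 0.01 and 0.1, 488 for the brightest per gene, and 355 to 1534 with an array left out. With the brightest per gene, an adjusted p under 0.01 and only 2 groups, those at 4 h (8422) became 4893, 4624 and 5003 and those at 6 h (9286) 5408, 5328 and 5782. With the first 2 of these settings, those from 2 to 4 h (7354) became 4476 and 3652, and those from 2 to 6 h (10305) 5845 and 5795; without 2 h replicate C those from 2 to 4 h were 4848. From 4 to 6 h, 78 became 499 with array weights, 253 with the dim filter, 204 with a trended variance, 9 and 297 at the other thresholds, 39 with only 2 groups, 44 with the replicate block, and 7 to 578 with an array left out. Replicate letters gave no clear pairing of the samples. Deviations of same-letter arrays correlated at -0.164 to 0.257 over 18 pairs (median 0.014), 4 of them over 0.1. Those of different letters correlated at -0.231 to 0.196 over 36 pairs (median -0.0028), 7 of them over 0.1. The highest value, 0.257, was of replicate C at 4 and 6 h, and 5 of 12 arrays correlated best with their own letter. With the replicate block, 0, 3 and 4 member probe sets passed at 2, 4 and 6 h, and the call lost was that of Mga 1434746_at (-0.23, limma adjusted p = 0.0581). The cause of these changes was not tested. Signal over background was not available for any array, so low probe sets have no detection limit here.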
